A study of Homo sapiens with 18 samples.

Results

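The 10 genes described here serve telomere maintenance, and their RNA was followed in pancreatic cancer cells given siRNA against 2 histone methyltransferases: the telomerase RNA TERC, the catalytic subunit TERT, the H/ACA proteins DKC1, NOP10, NHP2 and GAR1, and the shelterin genes TINF2, TERF1, TERF2 and POT1. They were taken by symbol and matched by Ensembl identifier to 10 of the 63677 gene identifiers in each deposited table, and all 10 passed the filter on low counts. TERC was chosen by its measured levels in the KMT2C and control libraries, whose ratio differed between the cell lines, so its values there are given as a description with no test. The other 9 genes were listed with it for their roles at telomeres, with earlier results of these data known.

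RNA sequencing covered 3 established human pancreatic ductal adenocarcinoma lines, PANC1, COLO357 and SUIT2, each transfected for 48 h with small interfering RNA (siRNA). Each line gave 6 libraries, namely 1 with control siRNA, 2 with KMT2D siRNA (siRNA1 and siRNA2) and 3 with KMT2C siRNA (siRNA1, siRNA2 and siRNA3), or 18 in all. KMT2C and KMT2D encode the enhancer-associated H3K4 methyltransferases of COMPASS-like complexes, and the design asked how the transcriptome changed when either was reduced. Ribosomal RNA was depleted from total RNA, a stranded kit was used, and paired 100 nt reads were made from 7 pools whose members the labels do not name. The libraries of a target in a line received different siRNAs, and no repeat cultures of 1 siRNA are named. The spread behind the p-values for targets and for lines therefore includes differences between siRNAs. The p-values for single siRNAs come from a fit with a level per siRNA. Their spread is how the effect of an siRNA varied between lines. With 1 control library a line, every ratio to control within a line rests on that library.

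Telomerase is a reverse transcriptase that copies a short template in its own RNA subunit onto chromosome ends. TERT is the enzyme, TERC carries the template, and the H/ACA proteins dyskerin (DKC1), NOP10, NHP2 and GAR1 bind the box H/ACA domain at the 3′ end of TERC and keep the RNA stable. Shelterin coats the telomeric repeat: TERF1 and TERF2 bind double-stranded repeats, POT1 binds the single-stranded end, and TIN2, the product of TINF2, joins them. Most cancers re-express TERT, whereas TERC and the H/ACA proteins are made in most cells.

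TERC is shown by the 2 stretches of it that define its function, since the account turns on this RNA. TERC lies on chromosome 3 at chr3:169764520-169765060 (GRCh38, minus strand, a long noncoding RNA gene of 1 exon of 541 bases in GENCODE 29); RefSeq ends the RNA earlier, at 451 bases (chr3:169764610-169765060). The deposited counts were made on hg19, so these coordinates are of the annotation and not of the files. Both stretches run 5′ to 3′ along the RNA, written as DNA.

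TERC template, chr3:169764980-169765040, bases 21 to 81, capitals the 11 bases that are complementary to the telomeric repeat: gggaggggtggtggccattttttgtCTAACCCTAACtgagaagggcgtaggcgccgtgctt

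TERC 3′ end of the RefSeq RNA, chr3:169764610-169764654, bases 407 to 451, capitals the ACA box: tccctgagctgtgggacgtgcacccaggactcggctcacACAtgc

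The ACA box ends 3 bases before the end of the RefSeq RNA, and it lies in the domain bound by the H/ACA proteins described below.

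The libraries held 14205640 to 32115894 gene counts. The share of read pairs outside annotated features was 7.49% to 16.5% in 15 libraries and over 20% in 3 KMT2C libraries (COLO357 siRNA3, SUIT2 siRNA2 and SUIT2 siRNA3, up to 30.4%). Levels are CPM (counts scaled to the library size) after TMM scaling, which adjusts library sizes by the bulk of genes. KMT2D lay at 34.8% to 84.7% of the line's control with KMT2D siRNA, and KMT2C lay at 43.2% to 116% of control with KMT2C siRNA. The value of 116% is that of the library labelled PANC1 KMT2C siRNA2, whose KMT2C was 59.0 CPM against 51.0 CPM in the control. The gene not targeted also moved. KMT2D was above control in 8 of the 9 KMT2C siRNA libraries (mean 168% of control, 372% in PANC1 siRNA2). KMT2C was above control in 4 of the 6 KMT2D siRNA libraries (mean 142%, 274% in PANC1 siRNA2). KRT8, KRT18 and KRT19, keratins of ductal epithelium, were present in all 3 lines at 153 CPM or more, while PANC1 had low KRT7 (1.91 to 3.03 CPM), EPCAM and CDH1, and high VIM (1296 to 2494 CPM). PTPRC, CD3E, CD68 and PECAM1, markers of leukocytes and endothelium, were at or near 0 in every library, but CDH5 reached 27.9 CPM in COLO357.

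TERC lay above control in all 5 siRNA libraries of COLO357, near or above control in PANC1, and above control with KMT2D siRNA but below it with KMT2C siRNA in SUIT2. In COLO357 it measured 53.3 CPM with control siRNA, 87.0 and 96.3 CPM with KMT2D siRNA, and 93.6, 85.0 and 82.9 CPM with KMT2C siRNA. In PANC1 it measured 32.2 CPM with control siRNA, 43.2 and 43.9 CPM with KMT2D siRNA, and 35.5, 31.4 and 37.6 CPM with KMT2C siRNA. In SUIT2 it measured 29.5 CPM with control siRNA, 36.6 and 32.9 CPM with KMT2D siRNA, and 18.4, 15.3 and 15.4 CPM with KMT2C siRNA. In COLO357 the control library was the lowest, and in SUIT2 the 3 KMT2C libraries lay below the other 3, whereas in PANC1 1 of the 3 KMT2C libraries (siRNA2, 31.4 CPM) was below its control.

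Against the control of the same line, the mean log2 ratio of TERC was 0.78 ± 0.10 (SD, n = 2) with KMT2D siRNA in COLO357 and 0.71 ± 0.093 (n = 3) with KMT2C siRNA. It was 0.44 ± 0.016 (n = 2) and 0.11 ± 0.13 (n = 3) in PANC1, and 0.23 ± 0.11 (n = 2) and -0.86 ± 0.15 (n = 3) in SUIT2. The KMT2C value of SUIT2 is 55.5% of the control level. In bulk RNA, fewer cells expressing a gene and less RNA per cell cannot be told apart. Of all 21028 genes, 5.81% had a mean log2 ratio as low as that of TERC or lower in the SUIT2 KMT2C libraries, and 7.48% had one as high or higher in the COLO357 KMT2C libraries. The rule that picked TERC used these values, and nothing is read from them.

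**Figure D1:**
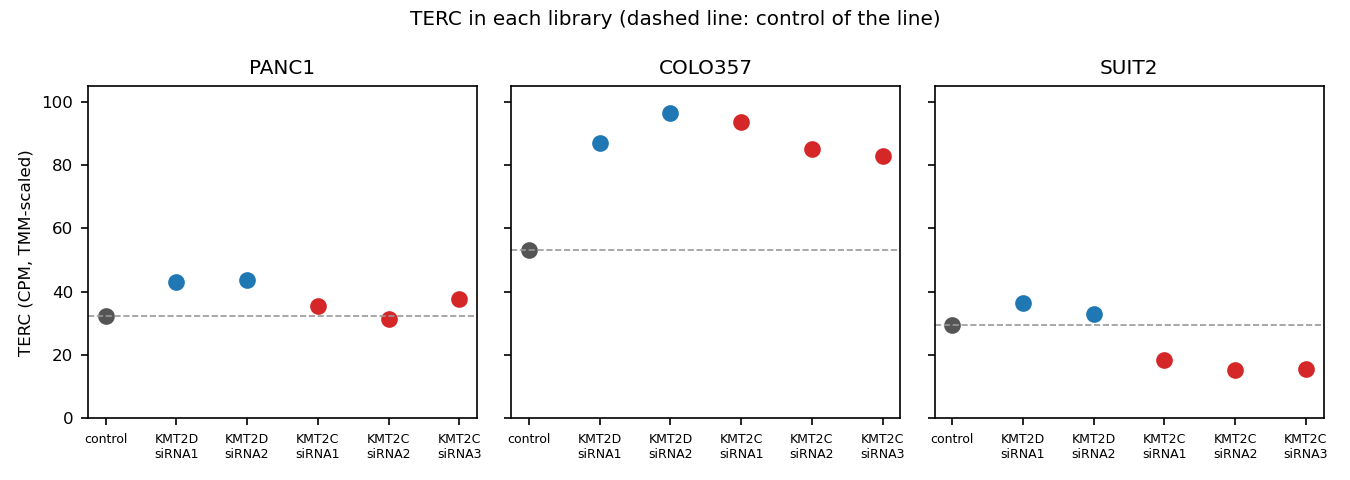
TERC in CPM (y axis) for each of the 6 libraries of a line (x axis), 1 panel per line, 1 point per library, coloured by target (grey control, blue KMT2D siRNA, red KMT2C siRNA). The dashed line is the line's control; the 3 red points of SUIT2 sit at 15.3 to 18.4 CPM, under the control at 29.5 CPM, and all points of COLO357 sit above its control at 53.3 CPM.

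The share of read pairs in no annotated feature was high in some of these libraries. It was 24.99% and 22.2% in the SUIT2 libraries with KMT2C siRNA2 and siRNA3. The SUIT2 library with KMT2C siRNA1 had 15.3%, under the 16.5% of its control, and TERC there was 62.4% of control. In COLO357 the KMT2C siRNA3 library had the highest share, 30.4%, and TERC there was 155% of control, while siRNA1 (13.5%) gave 176%. The part of this share in the TERC values was not tested.

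Other short nuclear noncoding RNAs spread on both sides of their control in SUIT2. Small Cajal body RNAs, which share the Cajal body with TERC, were fixed as a list with earlier results known, and 8 of the matched 12 had a mean of 2 CPM or more. With KMT2C siRNA their median log2 ratio was -0.23 in SUIT2 (range -0.98 to 0.45), 0.21 in COLO357 (range -0.26 to 0.44) and -0.26 in PANC1, against TERC at -0.85, 0.71 and 0.11 on the same scale (prior count 2). SCARNA6, at -0.98, and SCARNA21, at -0.73, had values near that of TERC in SUIT2. With KMT2D siRNA the median was -0.30 in PANC1, 0.27 in COLO357 and -0.13 in SUIT2, against TERC at 0.44, 0.78 and 0.23. RMRP, the RNA of a mitochondrial RNA-processing ribonuclease, was at 58.5% to 67.8% of control in the 3 SUIT2 KMT2C libraries. Its mean log2 ratio with KMT2C siRNA was -0.67 there, 0.34 in COLO357 and -0.23 in PANC1. The fall in SUIT2 was not particular to KMT2C siRNA, since RMRP was at 61.6% of control with KMT2D siRNA2 and at 121% with KMT2D siRNA1. For SNORD3A, from the same list of structural noncoding RNAs, the means in SUIT2 and COLO357 had the opposite sign. Its mean log2 ratio with KMT2C siRNA was 0.13 in SUIT2, -0.31 in COLO357 and -0.72 in PANC1. Its libraries lay on both sides of control, at 115%, 135% and 84.2% in SUIT2 and 128%, 43.0% and 95.7% in COLO357 (siRNA1 to siRNA3). Of the 4 structural noncoding RNAs that passed the filter, edgeR called 0 in each of the 3 target comparisons. Of the 11 small Cajal body RNAs that passed the filter, edgeR's quasi-likelihood test also called 0 in each. The shares of all genes it called were 1.2% (KMT2D), 0.281% (KMT2C) and 5.17% (KMT2C against KMT2D). Counts of 0 are near those shares and are not read as a result about these RNAs. DESeq2 called 0 of the 9 small Cajal body RNAs with an adjusted p. By edgeR, 0, 0 and 2 of the 11 had an unadjusted p under 0.05.

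**Figure D2:**
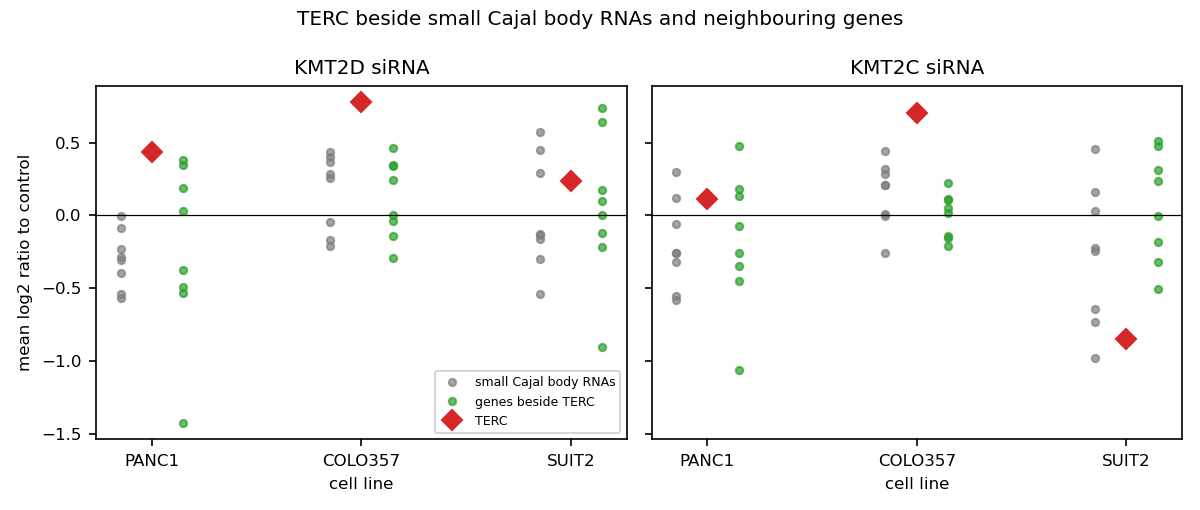
Mean log2 ratio to the line's control (y axis, prior count 2) of TERC (red diamonds), the 8 small Cajal body RNAs with a mean of at least 2 CPM (grey) and 8 genes beside TERC (green), by cell line (x axis) for KMT2D siRNA (left) and KMT2C siRNA (right). In SUIT2 with KMT2C siRNA TERC lies at -0.85, within the range of the small Cajal body RNAs (-0.98 to 0.45) and below that of its neighbours (-0.50 to 0.51).

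The neighbours of TERC on chromosome 3 passed in none of the 3 target comparisons by edgeR. Of 12 genes from ACTRT3 (1.9 kb away) to SKIL (592.6 kb away), 9 passed the filter, 0 were called beside 1.2% (KMT2D) and 0.281% (KMT2C) of all genes, and 1 and 0 had an unadjusted p under 0.05; of the 8 with an adjusted p by DESeq2, 1 (SEC62) was called with KMT2D siRNA and 0 with KMT2C siRNA. By single siRNA, SEC62 was higher (0.68, adjusted p = 0.00269) and GPR160 lower (-0.90, adjusted p = 0.029) with KMT2D siRNA2, beside 8.92% of all genes called, and PHC3 was lower with KMT2C siRNA2 (-0.76, adjusted p = 0.00257), beside 5.81%. For KMT2C siRNA against KMT2D siRNA, edgeR called 0 of the 9 beside 5.17% of all genes, and 2 had an unadjusted p under 0.05. DESeq2 called 1 of 9 in that comparison (ACTRT3), among 1927 genes in all. ACTRT3, an actin-related gene beside TERC, had a mean log2 ratio of -0.32 in SUIT2 with KMT2C siRNA, 0.11 in COLO357 and -0.45 in PANC1. MYNN, a zinc finger gene 7.8 kb away, had -0.18, 0.02 and -0.35.

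Between lines, the TERC levels tested were those of the KMT2D libraries, which did not serve to pick it. The spread behind these tests was estimated from all 18 libraries, so it includes the KMT2C libraries that did serve to pick TERC. The tests are therefore not fully independent of that choice. TERC was higher in COLO357 than in PANC1 by 1.07 on the log2 scale (SE 0.207, edgeR quasi-likelihood adjusted p = 0.000441). It was lower in SUIT2 than in COLO357 by 1.40 (log2 fold change -1.40, SE 0.208, adjusted p = 5.47e-05). SUIT2 and PANC1 did not differ at the threshold (-0.33, SE 0.205, adjusted p = 0.243). The order was therefore COLO357 above PANC1 and SUIT2, with the last pair unresolved. The same 3 contrasts were run for all members, 4 of 10 passing for COLO357 against PANC1 beside 44.2% of all genes, 3 of 10 for SUIT2 against PANC1 beside 35% of all genes, and 2 of 10 for SUIT2 against COLO357 beside 35%. The members' shares were close to the gene-wide shares or below them.

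Of the 9 genes tested beside TERC, 6 were also lower in SUIT2 than in COLO357 in the KMT2D libraries, where 18.5% of all genes were lower. ACTRT3 was lower by 1.16 on the log2 scale (log2 fold change -1.16, adjusted p = 0.00307), PRKCI, a kinase gene, by 1.20 (-1.20, adjusted p = 0.0036), and MYNN by 0.81 (-0.81, adjusted p = 0.016). The others were SEC62, SKIL and MECOM. For COLO357 against PANC1, 3 of the 9 were higher and 1 lower, beside 22.9% and 21.3% of all genes. For SUIT2 against PANC1, 2 of the 9 were higher and 2 lower, beside 17.5% and 17.5%. DNA copy number was not analysed here.

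By likeness across the 18 libraries, as a description, the genes nearest to TERC after each line's mean was subtracted were RPL13 (Pearson r = 0.92 in log2 CPM), RPL13P12 (0.92), NUDT19 (0.90), RSAD1 (0.90) and MICOS13 (0.90), among 12962 genes with a mean of at least 2 CPM. RPL13P12 is a processed copy of RPL13 and can share its reads. Without that subtraction the nearest were RSAD1 (0.96), LRFN4 (0.96), CIAO3 (0.95), NDUFB9 (0.95) and CIAO2A (0.95). Among the members NHP2 came nearest within lines (0.69, rank 200), then TINF2 (0.58, rank 623), and TERF1 was the most opposed (-0.54). Of the neighbours of TERC, ACTRT3 had 0.54 within lines (rank 919) and 0.89 without the subtraction (rank 118). MYNN had 0.25 (rank 3656) and 0.72 (rank 1379). The 18 points come from 3 lines with 1 control library each and the same 5 siRNAs, and are not independent.

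TERT was the least abundant member. Its counts were 5 to 48 per library (0.220 to 2.18 CPM). In SUIT2 it measured 1.73 CPM with control siRNA, 0.641 and 0.220 CPM with KMT2D siRNA, and 0.775, 0.333 and 0.753 CPM with KMT2C siRNA. In PANC1 it measured 1.12 CPM with control siRNA, 2.18 and 1.06 CPM with KMT2D siRNA, and 1.07, 1.61 and 1.05 CPM with KMT2C siRNA. In COLO357 it measured 0.801 CPM with control siRNA, 0.774 and 0.350 CPM with KMT2D siRNA, and 1.68, 0.375 and 1.38 CPM with KMT2C siRNA. All 5 siRNA libraries of SUIT2 lay below their control, which PANC1 and COLO357 did not show. The additive fit gave -0.67 (SE 0.485, adjusted p = 0.619) with KMT2D siRNA and -0.38 (SE 0.459, adjusted p = 0.856) with KMT2C siRNA, so neither passed. TERT was lower in SUIT2 than in PANC1 in the KMT2D libraries by 1.87 on the log2 scale (log2 fold change -1.87, SE 0.663, adjusted p = 0.0366); this ended without siRNA1 (adjusted p = 0.146) or without the KMT2C siRNA3 libraries (adjusted p = 0.0749).

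Per kilobase of merged exon in the control libraries, NOP10, DKC1 and TERC were the 3 highest members in each line. NOP10 led in PANC1 (144 CPM per kb) and COLO357 (234 CPM per kb), and DKC1 led in SUIT2 (82.9 CPM per kb). TERC reached 59.5, 98.6 and 54.5 CPM per kb in PANC1, COLO357 and SUIT2. TERT was the lowest of the 10 in each line (0.174 to 0.375 CPM per kb), with TERF1 next (1.56 to 2.15 CPM per kb).

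None of the 9 tested members was called in the comparison of KMT2D siRNA with control siRNA by edgeR, where 1.2% of all genes were called; 2 of the 9 had an unadjusted p under 0.05, and DESeq2 called 1 (TINF2). With KMT2C siRNA against control, 0 of 9 were called beside 0.281% of all genes, 1 had an unadjusted p under 0.05, and DESeq2 called 0. For KMT2C siRNA against KMT2D siRNA, 0 of 9 were called beside 5.17%, 2 had an unadjusted p under 0.05, and DESeq2 called 0. The members' median log2 fold changes were 0.05, -0.03 and -0.06, beside 0.02, 0.00 and -0.01 for all genes. For none of the 9 tested members did the effect differ between lines at the threshold with either target, beside 0% of all genes (469 genes for KMT2C siRNA and 475 for KMT2D siRNA had an unadjusted p under 0.05, 0 of the 9 members among them).

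**Figure D3:**
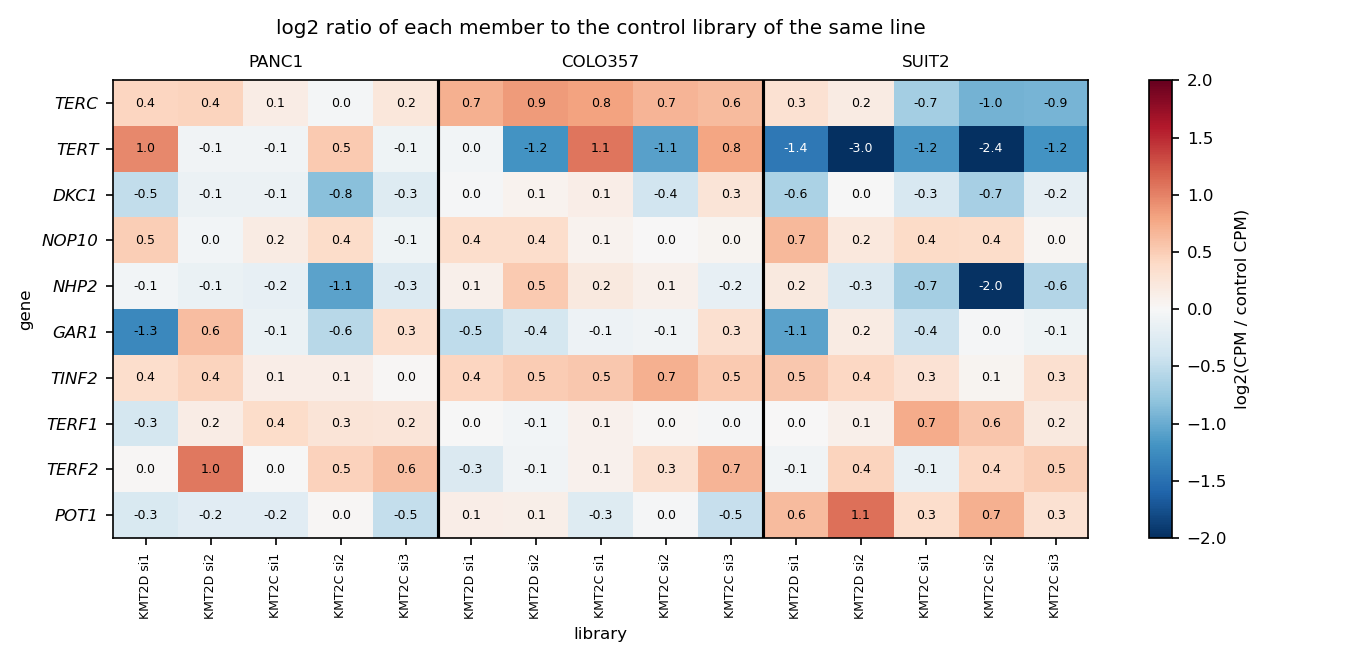
log2 ratio of each member's CPM to that of the control library of the same line (colour scale from -2 to 2 and printed value, rounded), with the 10 genes as rows and the 15 siRNA libraries as columns in 3 blocks by line. TINF2 is positive in all 15 libraries, TERC is negative in the 3 KMT2C libraries of SUIT2, and TERT is negative in the 5 libraries of SUIT2.

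Among the H/ACA genes, GAR1 and DKC1 passed against control for 1 siRNA each. GAR1, which joins the complex last, measured 11.9, 18.05 and 12.9 CPM with KMT2D siRNA1 in PANC1, COLO357 and SUIT2, against 28.9, 25.6 and 27.2 CPM in their controls and 44.4, 19.99 and 30.5 CPM with KMT2D siRNA2. Every siRNA1 library was below its control and its siRNA2 library, and the 9 KMT2C libraries held 19.6 to 36.5 CPM. GAR1 was lower with siRNA1 than with control by 0.92 on the log2 scale (log2 fold change -0.92, SE 0.231, adjusted p = 0.0226) and higher with siRNA2 than with siRNA1 by 1.12 (SE 0.233, adjusted p = 0.0023). The second call held in each alternative run. The first ended without the PANC1 control (adjusted p = 0.0584), the SUIT2 control (0.106), the PANC1 siRNA1 library (0.171) or the SUIT2 siRNA1 library (0.140).

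DKC1, the pseudouridine synthase of the complex, was lower with KMT2C siRNA2. It measured 306, 152 and 221 CPM with KMT2C siRNA2 in PANC1, COLO357 and SUIT2, against 549, 197 and 349 CPM in the controls, and every siRNA2 library was below its control. With KMT2C siRNA1 it measured 504, 215 and 278 CPM, and with KMT2C siRNA3 457, 236 and 307 CPM, so that siRNA2 gave the lowest of the 3 in each line. The log2 fold change was -0.63 (SE 0.143, adjusted p = 0.00807), and -0.11 and -0.07 with KMT2C siRNA1 and siRNA3, which did not pass. Without the library labelled PANC1 KMT2C siRNA2 the call ended (-0.58, adjusted p = 0.061), as it did without the PANC1 control (adjusted p = 0.0665) or the SUIT2 control (adjusted p = 0.0532). Between lines in the KMT2D libraries, DKC1 was lower in COLO357 than in PANC1 (log2 fold change -1.15, SE 0.289, edgeR adjusted p = 0.00372). The contrasts of SUIT2 with PANC1 (-0.64, adjusted p = 0.0947) and with COLO357 (0.51, adjusted p = 0.18) did not pass. DKC1 hosts SNORA36A and SNORA56, which share 2.78% and 3.07% of its exon bases.

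NHP2, a core protein of box H/ACA particles, was lowest with KMT2C siRNA2 in 2 of 3 lines. It measured 10.9, 24.8 and 4.20 CPM there in PANC1, COLO357 and SUIT2 against 22.9, 23.0 and 16.6 CPM in the controls, and COLO357 alone lay above its control. The log2 fold change of -0.85 did not pass (SE 0.270, adjusted p = 0.0663), but it passed with no filter on low counts (adjusted p = 0.00437), without the COLO357 control (0.0332) and without the SUIT2 KMT2D siRNA1 library (0.0421). For KMT2C siRNA against KMT2D siRNA it was -0.51 (SE 0.194, adjusted p = 0.122). NHP2 shares 27.4% of its exon bases with RMND5B on the opposite strand, so its counts are uncertain where strand was not used.

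NOP10 measured 113, 166 and 64.3 CPM with KMT2D siRNA1 in PANC1, COLO357 and SUIT2 against 80.0, 130 and 40.9 CPM in the controls. With KMT2D siRNA2 it measured 77.4, 166 and 47.6 CPM. Each siRNA1 library was above its control, but the log2 fold change of 0.50 did not pass (SE 0.147, adjusted p = 0.0552). It passed in 5 alternatives (adjusted p = 0.0417 to 0.0483). NOP10 separated the lines by 0.81 between COLO357 and PANC1 (SE 0.239, adjusted p = 0.0113) and -1.57 between SUIT2 and COLO357 (SE 0.243, adjusted p = 8.3e-05) in the KMT2D libraries. The first ended without siRNA2 (adjusted p = 0.0968), and a fall of 0.76 from PANC1 to SUIT2 (log2 fold change -0.76, adjusted p = 0.0194) ended without siRNA1 (adjusted p = 0.168).

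**Figure D4:**
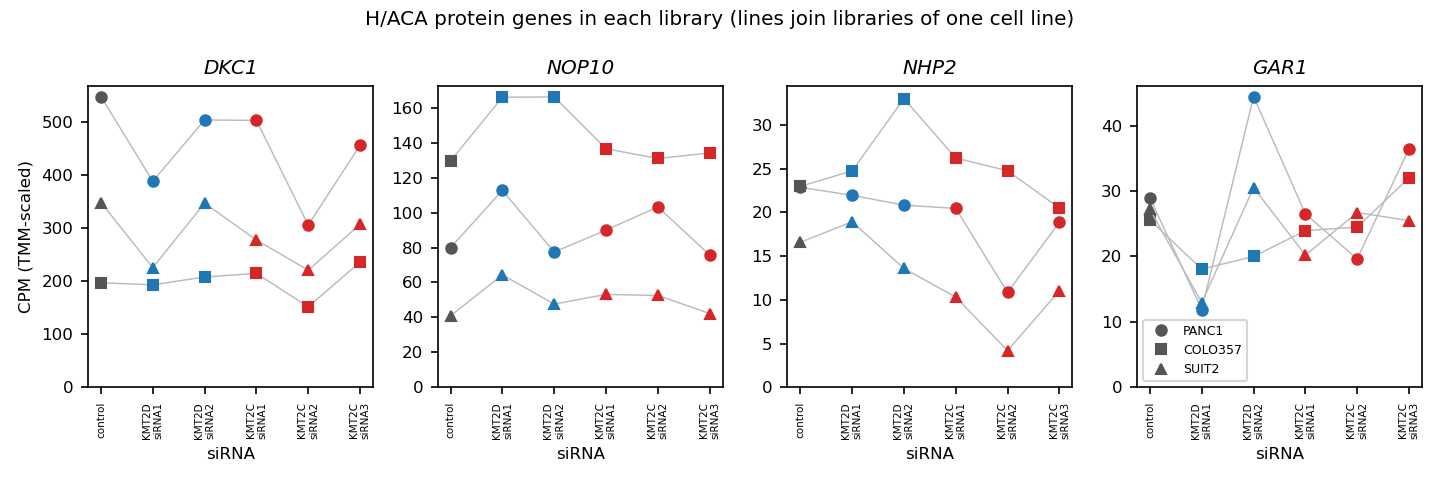
CPM (y axis, from 0) of the 4 H/ACA protein genes in the 18 libraries, with siRNA along the x axis and a marker for each cell line (circle PANC1, square COLO357, triangle SUIT2), coloured by target. With KMT2D siRNA1 the GAR1 points lie at 11.9 to 18.05 CPM, under the controls at 25.6 to 28.9 CPM, and with KMT2C siRNA2 the DKC1 point of each line lies below its control.

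TINF2 was above the control of its line in all 15 siRNA libraries, the only member for which this held. It measured 46.9 CPM with control siRNA in PANC1 and 60.0, 63.5, 51.3, 51.2 and 47.7 CPM with the 5 siRNAs. In COLO357 it measured 20.3 CPM and then 27.2, 28.8, 29.5, 33.4 and 29.3 CPM, and in SUIT2 27.9 CPM and then 40.5, 37.2, 34.0, 29.04 and 34.8 CPM, in the order KMT2D siRNA1 and siRNA2 and KMT2C siRNA1, siRNA2 and siRNA3. Neither target passed: KMT2D siRNA gave 0.45 (SE 0.147, adjusted p = 0.168; DESeq2 0.46, adjusted p = 0.0198) and KMT2C siRNA 0.30 (SE 0.139, adjusted p = 0.521). TINF2 was lower in COLO357 than in PANC1 in the KMT2D libraries by 1.14 (log2 fold change -1.14, SE 0.206, adjusted p = 0.00025). It was lower in SUIT2 than in PANC1 by 0.67 (-0.67, adjusted p = 0.0164), a call that ended without siRNA1 (adjusted p = 0.116), without siRNA2 (0.0819) or with no filter on low counts (0.107).

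Of the genes for repeat-binding proteins, TERF2 passed between the KMT2D siRNAs and TERF1 passed in no target comparison. TERF2 measured 36.2, 33.7 and 45.5 CPM with KMT2D siRNA2 in PANC1, COLO357 and SUIT2 against 17.7, 28.9 and 32.0 CPM with KMT2D siRNA1, so each siRNA2 library was the higher. The difference of 0.62 passed (SE 0.188, adjusted p = 0.0316, with 2 of 10 members called beside 11.3% of all genes). It ended without any of 5 of the 6 KMT2D libraries, at 0.33 (adjusted p = 0.304) without the PANC1 siRNA2 library and adjusted p 0.0634 to 0.0985 without the PANC1 siRNA1, COLO357 siRNA1, SUIT2 siRNA1 or SUIT2 siRNA2 library, and without the 3 libraries with over 20% in no feature (0.0559). TERF1 in SUIT2 measured 19.0 CPM with control siRNA and 31.7, 28.0 and 21.8 CPM with KMT2C siRNA, all above control, while COLO357 held 16.5 to 18.3 CPM over its 6 libraries. Its log2 fold change over the 3 lines did not pass (KMT2C siRNA 0.28, SE 0.160, adjusted p = 0.628).

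POT1 passed in no comparison, and its ratios to control had different signs in the lines. In SUIT2 it measured 25.2 CPM with control siRNA, 39.2 and 53.9 CPM with KMT2D siRNA, and 32.1, 41.5 and 31.1 CPM with KMT2C siRNA, so all 5 were above control. In PANC1 it measured 56.2 CPM with control siRNA, 45.5 and 48.3 CPM with KMT2D siRNA, and 48.1, 57.0 and 40.5 CPM with KMT2C siRNA, and 4 of these 5 were below control. COLO357 held 22.8 to 34.5 CPM over its 6 libraries. The difference of the KMT2D effect between lines had an unadjusted p of 0.0509 and an adjusted p of 1 with edgeR.

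**Figure D5:**
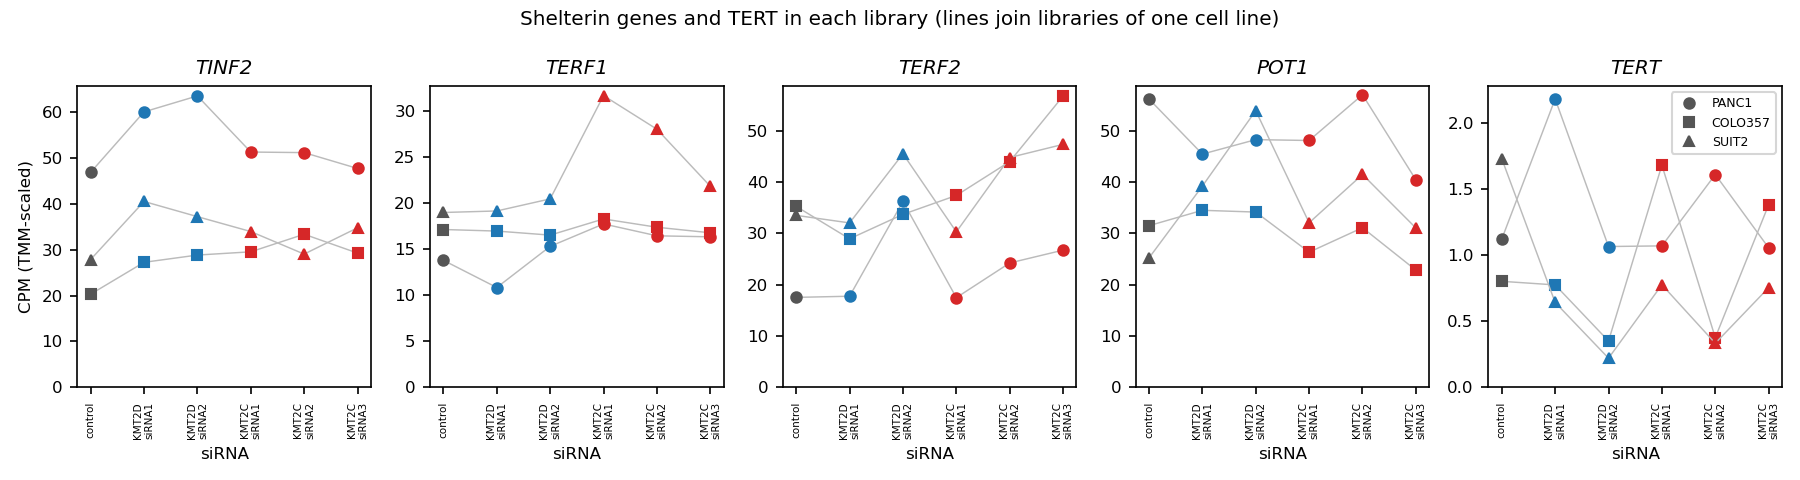
CPM (y axis, from 0) of the 4 shelterin genes and TERT in the 18 libraries, with siRNA along the x axis and a marker for each cell line, coloured by target. TINF2 lies above the line's control in all 15 siRNA libraries, at 27.2 to 63.5 CPM, and the TERT axis ends near 2.18 CPM.

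Counted by siRNA, 1 of 9 members was called with KMT2D siRNA1 (GAR1) beside 4.02% of all genes and 0 with KMT2D siRNA2 beside 8.92%. With KMT2C siRNA1, siRNA2 and siRNA3 the counts were 0 beside 1.2%, 1 (DKC1) beside 5.81% and 0 beside 0.623%. At an unadjusted p under 0.05 the 3 siRNAs with a count of 0, KMT2D siRNA2, KMT2C siRNA1 and KMT2C siRNA3, had 3, 1 and 1 of 9. DESeq2 was not run for single siRNAs.

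Of 15 other shelterin, CST and end-processing genes tested, 0 were higher and 2 lower with KMT2D siRNA against control by edgeR. Their median was -0.37 beside 0.02 over all genes, of which 0.699% were higher and 0.504% lower. EXO1, an end-resecting nuclease, was lower by 1.14 (log2 fold change -1.14, SE 0.180, adjusted p = 0.00179), at 32.6% to 59.1% of control in the 6 libraries. POLA1, the catalytic subunit of DNA polymerase alpha, whose complex with primase fills in telomere ends, was lower by 1.07 (-1.07, SE 0.213, adjusted p = 0.0118), at 29.7% to 72.1%. DESeq2 called 5 of the 15 with KMT2D siRNA (EXO1, POLA1, POLA2, PRIM1 and PRIM2), among 661 genes in all. Between the targets it called 5 (ACD, EXO1, POLA1, POLA2 and PRIM2), among 1927 genes in all. EXO1 and POLA1 also copy or process DNA elsewhere in the genome. POLA1 lost its call without any single control library (adjusted p = 0.0733 to 0.088). With KMT2C siRNA 0 of 15 were called by edgeR or DESeq2 (3 at an unadjusted p under 0.05), beside 0.281% of all genes by edgeR. Between the targets POLA1 (1.04, edgeR adjusted p = 0.00228), EXO1 (0.70, adjusted p = 0.0089) and POLA2 (0.48, adjusted p = 0.0388) were higher with KMT2C siRNA, beside 2.45% of all genes. The EXO1 call ended without siRNA1 (adjusted p = 0.0785) and the POLA2 call in 5 alternatives. By single siRNA, 0 were higher and 4 lower with KMT2D siRNA1, beside 1.84% and 2.18% of all genes. With KMT2D siRNA2, 1 was higher and 3 lower, beside 3.98% and 4.94%. With KMT2C siRNA2, 1 was higher (TNKS) and 1 lower (SAMHD1), beside 2.67% and 3.14%. With KMT2C siRNA1 or siRNA3, 0 were called, beside 1.2% and 0.623% of all genes.

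In the list for alternative lengthening and telomeric chromatin, 2 of 19 were higher and 0 lower with either target, where 0.699% (KMT2D) and 0.266% (KMT2C) of all genes were higher. HMBOX1, which encodes a telomere repeat-binding protein, was higher by 1.36 (SE 0.203, adjusted p = 0.00113) with KMT2D siRNA and by 1.21 (SE 0.194, adjusted p = 0.0035) with KMT2C siRNA. Its level was 184% to 357% of control in the 6 KMT2D libraries and 157% to 330% in the 9 KMT2C libraries. H3-3A, a gene for histone H3.3, which is deposited at telomeres, was higher by 0.94 (SE 0.186, adjusted p = 0.0112) and 0.90 (SE 0.177, adjusted p = 0.024). It has near-identical processed copies that can share its reads. H3-3A lost both calls with siRNA as a random block (adjusted p = 0.0805 and 0.151) and without the PANC1 control (0.115 and 0.263) or the SUIT2 control (0.178 and 0.375). Its KMT2C call also ended without siRNA1, without siRNA3 and without the 3 libraries with over 20% in no feature. HMBOX1 lost the KMT2C call without the PANC1 control (0.0903) or the SUIT2 control (0.135). BLM (0.46, adjusted p = 0.0426), a helicase, was higher with KMT2C than with KMT2D siRNA and lost that call in 7 alternatives. By single siRNA, 2 were higher and 1 lower with KMT2D siRNA1, beside 1.84% and 2.18% of all genes. With KMT2D siRNA2, 2 were higher and 5 lower (BLM, CBX5, FANCM, SUV39H1 and WRN), beside 3.98% and 4.94%. With each KMT2C siRNA, 2 were higher and 0 lower. The shares of all genes higher were 0.694% (siRNA1), 2.67% (siRNA2) and 0.48% (siRNA3).

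Of 18 genes for telomerase assembly, trafficking and RNA maturation, 0 were called against control with either target by edgeR or DESeq2. By edgeR, 2 (KMT2D) and 0 (KMT2C) had an unadjusted p under 0.05, and the shares of all genes called were 1.2% and 0.281%. DHX36, a helicase that acts on TERC, was higher with KMT2C than with KMT2D siRNA (0.38, edgeR adjusted p = 0.0429, also called by DESeq2). The share of all genes called there was 5.17%. By single siRNA, PTGES3 and SMN1 were lower with KMT2D siRNA2 (beside 4.94% of all genes) and HSP90AA1 with KMT2C siRNA2 (beside 3.14%). SMN1 has a near-identical copy that can share its reads. Of 13 regulators of TERT or TERC transcription, 0 were called against control by either tool, beside the same 1.2% and 0.281% by edgeR. At an unadjusted p under 0.05 there were 2 and 3. SP1, a promoter-binding factor, was higher with KMT2C than with KMT2D siRNA (0.43, edgeR adjusted p = 0.0465), beside the same 5.17%. DESeq2 added NFYB. By single siRNA, HIF1A was lower with KMT2D siRNA1 (beside 2.18% of all genes) and GABPB1 with KMT2C siRNA2 (beside 3.14%). DHX36 and SP1 lost these calls in 7 and 9 alternatives.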

How the data were processed

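Per the labels' protocols, ribosomal RNA was depleted and stranded total RNA libraries were read as pairs. Per the submitters' processing notes, FastQC, TopHat2, HTSeq and edgeR were used with hg19; neither source names the annotation release, the HTSeq mode or its strand setting. The authors deposited raw counts per gene identifier; entries that name no gene (33.0% to 53.4% of read pairs) were left out of library sizes. From these counts, TMM-scaled CPM and edgeR quasi-likelihood F tests (edgeR 4.0.16, R 4.3.3; minimum count 10, minimum total 15; 21028 genes; Benjamini-Hochberg, 0.05) were computed. Target effects used an additive line term, siRNA effects a level per siRNA, and line differences 9 groups of line by target. Alternatives used DESeq2 1.42.0 and limma 3.58.1. For target and line comparisons, a run without siRNA1, siRNA2 or siRNA3 dropped that siRNA number of both targets in every line. Without siRNA1 or siRNA2, the KMT2D group of each line kept only the library of its other siRNA. The fits were tested on simulated data. Standard errors come from the F statistic. Sequences and coordinates come from GENCODE 29 and RefSeq (GRCh38). Members and lists were chosen with earlier results of these data known. The text names all 10 members, called genes of each list (up to 4 per list and target comparison) and the 5 genes most correlated with TERC.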

Additional observations from a re-analysis of the deposited data

Results flagged for a closer look

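In 7 cases a pair of lines stood apart because every library of 1 line moved one way from its control and every library of the other line the opposite way. Each of these differences between 2 lines was not tested. The share of all genes with such a case is not given here, so the number of cases is not read as a result about the members. Each group held 2 or 3 libraries, and the ratios of a line share 1 control library. For TERC with KMT2C siRNA, COLO357 exceeded SUIT2 by 1.56 in mean log2 ratio, which is the difference TERC was picked for. For POT1 the mean log2 ratio with KMT2D siRNA was lower in PANC1 than in COLO357 (-0.39) and in SUIT2 (-1.13), and with KMT2C siRNA lower in COLO357 than in SUIT2 (-0.70). TERF2 with KMT2D siRNA was higher in PANC1 than in COLO357 by 0.71, NHP2 with KMT2D siRNA was lower in PANC1 than in COLO357 (-0.41), and TERF1 with KMT2D siRNA was lower in COLO357 than in SUIT2 (-0.0937). These TERF1 ratios were small, from -0.052 in COLO357 to 0.108 in SUIT2. For the members other than TERC, edgeR's interaction test over the 3 lines gave an adjusted p of 1.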

How the results depend on the processing

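For KMT2D siRNA against control (253 genes) the number of genes called was 661 with DESeq2, 657 with no filter, 77 with siRNA as a replicate block (limma-voom, paired by siRNA across lines) and 36 to 1081 without 1 replicate or control; members called were 1 with DESeq2 and 0 to 2. For KMT2C siRNA against control (59 genes) it was 210, 270, 26 with the replicate block, 37 without the 3 libraries over 20% in no feature, and 7 to 184. For KMT2C against KMT2D siRNA (1087 genes) it was 1927, 1762, 288 with the replicate block, 342, and 369 to 2298; members called were 1 with no filter (NHP2) and 0 to 2. Same-siRNA libraries of 2 lines correlated at 0.056 to 0.379 in their deviations from the group means. Leaving 1 replicate out, here and below, dropped 1 siRNA number of both targets in every line. Without siRNA1 or siRNA2, each line kept 1 KMT2D library. Differences of effect between lines rose from 0 genes to 46 (KMT2C) and 23 (KMT2D) with no filter and were 0 to 13 and 0 to 1 without 1 replicate.

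Leaving 1 replicate out gave 6155 to 8314 genes for COLO357 against PANC1, 4764 to 6456 for SUIT2 against PANC1 (members called 0 to 3) and 4618 to 6325 for SUIT2 against COLO357. By siRNA against control the ranges without 1 library were 312 to 1038 (KMT2D siRNA1), 1140 to 2120 (KMT2D siRNA2), 99 to 346 (KMT2C siRNA1), 537 to 1530 (KMT2C siRNA2), 64 to 184 (KMT2C siRNA3) and 1171 to 2651 (KMT2D siRNA2 against siRNA1). With no filter KMT2C siRNA1 gave 636 and siRNA3 374. Without the 3 libraries over 20% KMT2C siRNA2 gave 533 and siRNA3 4. Members called were 0 to 2 for KMT2D siRNA1 (2 with RLE factors), 0 to 1 for KMT2D siRNA2 (1 with no filter), 0 to 2 for KMT2C siRNA2 (2 with no filter) and 1 to 2 for siRNA2 against siRNA1 of KMT2D (1 without the 3 libraries). TERC with KMT2D siRNA in PANC1 was 0.47 with plain totals, 0.49 with RLE factors and 0.47 without structural RNAs. Of 2239 single-gene alternatives, 2129 kept their direction and side of the threshold, 30 came to pass it, 80 no longer did, and none reversed. TERT rests on 5 to 48 counts, and the cause of each shift was not tested.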
